A study of Arabidopsis thaliana with 33 samples.

Results

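The plastid genome of Arabidopsis thaliana encodes a share of the proteins of the photosynthetic membrane and the large subunit of Rubisco, and 43 of these genes were followed along the root and across sorted root cells. The members were the probe sets that the platform annotation maps to a chloroplast locus among the listed photosystem, cytochrome b6f, ATP synthase, NDH and Rubisco genes, which gave 43 of the 22746 probe sets. They comprised 5 genes of photosystem I, 14 of photosystem II, 6 of the cytochrome b6f complex, 6 of the ATP synthase, 11 of the NDH complex and rbcL. Of these 42 had a probe set that lists 1 locus, and ndhB, which is present in 2 copies in the plastid genome, had a probe set that lists both (ArthCp086 and ArthCp068). Mitochondrial genes with similar names were kept out.

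Photosystem II, the cytochrome b6f complex and photosystem I pass electrons along the thylakoid membrane, the ATP synthase uses the resulting proton gradient, the NDH complex returns electrons to the chain, and Rubisco fixes carbon dioxide. The plastid genome encodes the core subunits, while light-harvesting proteins and many peripheral subunits are encoded in the nucleus. Roots contain mostly non-green plastids, in which these genes are transcribed at low levels.

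Expression had been measured on 33 Affymetrix arrays, and the deposited values are linear intensities with no stated unit, whose array medians lay between 0.790 and 1.04. Seedlings were grown on standard Murashige and Skoog medium with sucrose, and the labels name no ecotype. Sorted cells came from seedlings of 5 to 6 days, whose roots were turned into protoplasts and sorted by the green fluorescent protein of a reporter line, with 1 array per population. These were S32 (protophloem and metaphloem), S17 (phloem pole pericycle, with no reporter named in its own label), SUC2 (companion cells of the phloem), J2501 (pericycle, xylem and phloem together), JO121 (xylem pole pericycle), RM1000 (lateral root primordia), S4 (xylem of the meristematic zone) and COBL9 (hair cells). Section arrays came from 2 single roots of 7 days, root 2 with 12 sections and root 1 with the same 12 and a columella section. Each root gave 4 maturation, 2 elongation and 6 meristematic sections, numbered from the tip within each zone. The root was the replicate (n = 2), nothing says how the roots were grown or processed relative to each other, and their array titles follow different naming series, so a batch and a root cannot be told apart.

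The spread of log2 values within an array (SD) ran from 0.634 to 1.53 on 31 arrays, but was 0.426 for elongation section 2 of root 1 and 0.137 for the columella section, which leaves little room for differences on those 2 arrays. Elongation section 2 of root 1 also carries a description that names root 2, and it was placed in root 1 by its title. Hair cell markers matched their label, since EXPA7 stood at 16.9 in COBL9 against 0.601 to 1.26 in the other 7 populations, and EXPA18 at 7.05 against 0.472 to 1.34. The lateral root primordium gene PUCHI stood at 4.87 in RM1000 against 0.591 to 1.43 elsewhere. Of 2 measured pericycle genes, LBD16 stood at 6.23 in RM1000 and 5.87 in the pericycle population S17, but at 1.84 in JO121 and 0.929 in J2501, below its 2.47 in SUC2. LBD29 lay near the array medians, at 0.942 in S17, 0.748 in JO121 and 0.805 in J2501, so these markers did not check the pericycle labels of JO121 and J2501. The only measured marker of protophloem and metaphloem, OPS, was highest in S32 at 0.833 against 0.457 to 0.791, but below the median of the S32 array (0.892), so the cell type of S32 rests on its label. Markers of companion cells, xylem, columella and dividing cells were not measured by single-gene probe sets.

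Several members gave signals in the upper range of their arrays in every section of the 3 zones. Of the 43 members, 7 lay above the 75th percentile of the array in all 24 sections, against 1389 of all probe sets. They were psaB, petA (cytochrome f), atpE and atpH of the ATP synthase, and ndhC, ndhD and ndhI. In at least 12 of the sections 23 members lay above it, against 5286 of all probe sets. At the other end psaA, psbE, psbH, petL and atpI were above that percentile in none of the sections, as were 9790 of all probe sets. In all 8 sorted populations 10 members lay above it (psaB, psaI, psbM, petA, petB, atpA, atpB, atpE, atpH and ndhI), against 2355 of all probe sets.

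The largest difference among cell populations was in S32. Every one of the 43 members had its highest value in S32, a position that 8.56% of all probe sets had (41 of 43 with arrays scaled to a common SD). Differences here are log2 values minus the median of the other 7 populations, with 1 array each and therefore no test. On this scale 39 members were at least 2-fold above (6.04% of all probe sets) and 27 at least 4-fold above (2.51%), with a member median of 2.43, or 5.37-fold, against 0.10 over all probe sets. Even over the next highest population 35 members were at least 2-fold higher, against 517 of all 22746 probe sets. The median intensity of the members was 8.18 in S32, against 0.828 to 1.55 in the other 7 populations. A larger number of plastids per cell and more transcript per plastid cannot be told apart in these arrays.

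All complexes took part, with median folds of 5.94 for photosystem I, 4.32 for photosystem II, 4.84 for cytochrome b6f, 3.19 for the ATP synthase, 6.96 for NDH and 7.43 for rbcL. Median levels in the other 7 populations were 0.991, 1.15, 0.883, 3.08, 0.815 and 1.60 in the same order. Levels near the array medians may be background, so the folds of complexes, and of members with such levels, are not ranked. In photosystem I, psaJ (ArthCp042), a small membrane subunit, stood at 13.0 in S32, against 0.848 in S17, 1.16 in SUC2, 0.990 in J2501, 0.772 in JO121, 1.47 in RM1000, 1.60 in S4 and 0.906 in COBL9. The S32 array was 8.12 times the next one, and the other 7 formed a narrow low range. psaI (ArthCp032), another small subunit, stood at 18.2 in S32, against 2.38 in S17, 3.09 in SUC2, 3.06 in J2501, 1.87 in JO121, 3.03 in RM1000, 4.82 in S4 and 3.57 in COBL9. psaB (ArthCp021), one of the pair of large reaction centre proteins, stood at 32.1 in S32, against 21.7 in S17, 18.0 in SUC2, 4.59 in J2501, 4.73 in JO121, 13.3 in RM1000, 14.3 in S4 and 7.73 in COBL9. Its S32 value was 2.42 times the median of the others, with S17 next and J2501 and JO121 lowest. psaA (ArthCp022), the partner of psaB, gave the smallest difference of all members, at 1.23 in S32, against 0.891 in S17, 0.778 in SUC2, 0.960 in J2501, 0.816 in JO121, 0.667 in RM1000, 0.694 in S4 and 0.714 in COBL9. All 8 of its values lay near the array medians, and its probe set gave little signal in any population.

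In photosystem II, psbN (ArthCp051), which in tobacco is needed for assembly of the complex, stood at 8.18 in S32, against 0.522 in S17, 1.51 in SUC2, 0.854 in J2501, 0.738 in JO121, 1.74 in RM1000, 0.855 in S4 and 0.614 in COBL9. psbT (ArthCp050), a small subunit of the core, stood at 5.38 in S32, against 0.506 in S17, 1.14 in SUC2, 0.750 in J2501, 0.708 in JO121, 0.980 in RM1000, 0.671 in S4 and 0.383 in COBL9. Both showed a single high array and 7 low ones. psbA (ArthCp002), which encodes the reaction centre protein that turns over fastest in light, stood at 6.42 in S32, against 1.88 in S17, 1.06 in SUC2, 0.996 in J2501, 0.843 in JO121, 0.880 in RM1000, 0.997 in S4 and 0.858 in COBL9. psbJ (ArthCp036), a small subunit, stood at 7.63 in S32, against 4.49 in S17, 4.85 in SUC2, 1.16 in J2501, 0.909 in JO121, 3.47 in RM1000, 2.16 in S4 and 0.799 in COBL9. Outside S32, psbJ was higher in SUC2, S17 and RM1000, and near the array medians in JO121 and COBL9. In the cytochrome b6f complex petB (ArthCp053), cytochrome b6, stood at 16.3 in S32, against 10.2 in S17, 9.90 in SUC2, 2.17 in J2501, 3.30 in JO121, 14.2 in RM1000, 8.29 in S4 and 3.58 in COBL9. RM1000 came close to S32 there, and J2501 was lowest.

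Among the ATP synthase genes, atpB (ArthCp029), the catalytic beta subunit, stood at 17.5 in S32, against 10.3 in S17, 10.9 in SUC2, 3.29 in J2501, 9.44 in JO121, 15.2 in RM1000, 9.47 in S4 and 3.25 in COBL9. atpE (ArthCp028), the epsilon subunit, stood at 48.2 in S32, against 18.7 in S17, 21.0 in SUC2, 15.9 in J2501, 13.9 in JO121, 23.3 in RM1000, 19.5 in S4 and 8.12 in COBL9. RM1000 came close to S32 for atpB, whereas for atpE S32 stood clear of all 7, and COBL9 was lowest for both genes. ndhE (ArthCp076), a membrane subunit of the NDH complex, stood at 9.57 in S32, against 0.475 in S17, 1.11 in SUC2, 0.916 in J2501, 0.651 in JO121, 0.884 in RM1000, 0.714 in S4 and 0.432 in COBL9. ndhG (ArthCp077), another membrane subunit, stood at 10.2 in S32, against 0.616 in S17, 0.815 in SUC2, 1.66 in J2501, 1.16 in JO121, 0.799 in RM1000, 1.29 in S4 and 0.710 in COBL9. In both genes the other 7 populations lay around the level of their array medians, which may be background, so the size of their folds is not ranked. rbcL (ArthCp030), the large subunit of Rubisco, stood at 11.9 in S32, against 1.13 in S17, 2.38 in SUC2, 1.80 in J2501, 1.38 in JO121, 1.60 in RM1000, 2.33 in S4 and 1.06 in COBL9. The 4 members under 2-fold were petB, psbH, atpB and psaA, at 1.97, 1.95, 1.85 and 1.58 times the median of the others.

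Further members that differed most in one population kept S32 on top. psaC (ArthCp075), which holds the terminal iron-sulphur clusters of photosystem I, stood at 5.85 in S32, against 0.520 in S17, 1.07 in SUC2, 1.10 in J2501, 0.680 in JO121, 0.826 in RM1000, 1.000 in S4 and 0.436 in COBL9. S17 and COBL9 were its lowest arrays. psbC (ArthCp018), an inner antenna protein of photosystem II, stood at 9.14 in S32, against 3.05 in S17, 2.15 in SUC2, 1.28 in J2501, 1.05 in JO121, 1.55 in RM1000, 2.02 in S4 and 0.908 in COBL9. psbI (ArthCp006), a small photosystem II subunit, stood at 12.8 in S32, against 2.98 in S17, 5.45 in SUC2, 2.27 in J2501, 1.21 in JO121, 3.36 in RM1000, 3.90 in S4 and 1.91 in COBL9. SUC2 was second for psbI, as it was for psbK. petD (ArthCp054), subunit IV of cytochrome b6f, stood at 2.31 in S32, against 0.525 in S17, 0.536 in SUC2, 0.932 in J2501, 0.727 in JO121, 0.526 in RM1000, 0.555 in S4 and 0.615 in COBL9. atpH (ArthCp009), the subunit of the proton-driven ring, stood at 13.5 in S32, against 3.22 in S17, 3.19 in SUC2, 1.61 in J2501, 1.74 in JO121, 2.95 in RM1000, 4.80 in S4 and 2.17 in COBL9. S4 was second for atpH. ndhH (ArthCp080), a peripheral arm subunit, stood at 5.33 in S32, against 0.453 in S17, 0.517 in SUC2, 0.975 in J2501, 0.666 in JO121, 0.491 in RM1000, 0.532 in S4 and 0.379 in COBL9. ndhB stood at 2.05 in S32, against 0.496 in S17, 0.550 in SUC2, 0.802 in J2501, 0.690 in JO121, 0.525 in RM1000, 0.558 in S4 and 0.696 in COBL9. J2501 was second for petD, ndhH and ndhB, at values near its array median (0.884) that may be background.

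**Figure D1:**
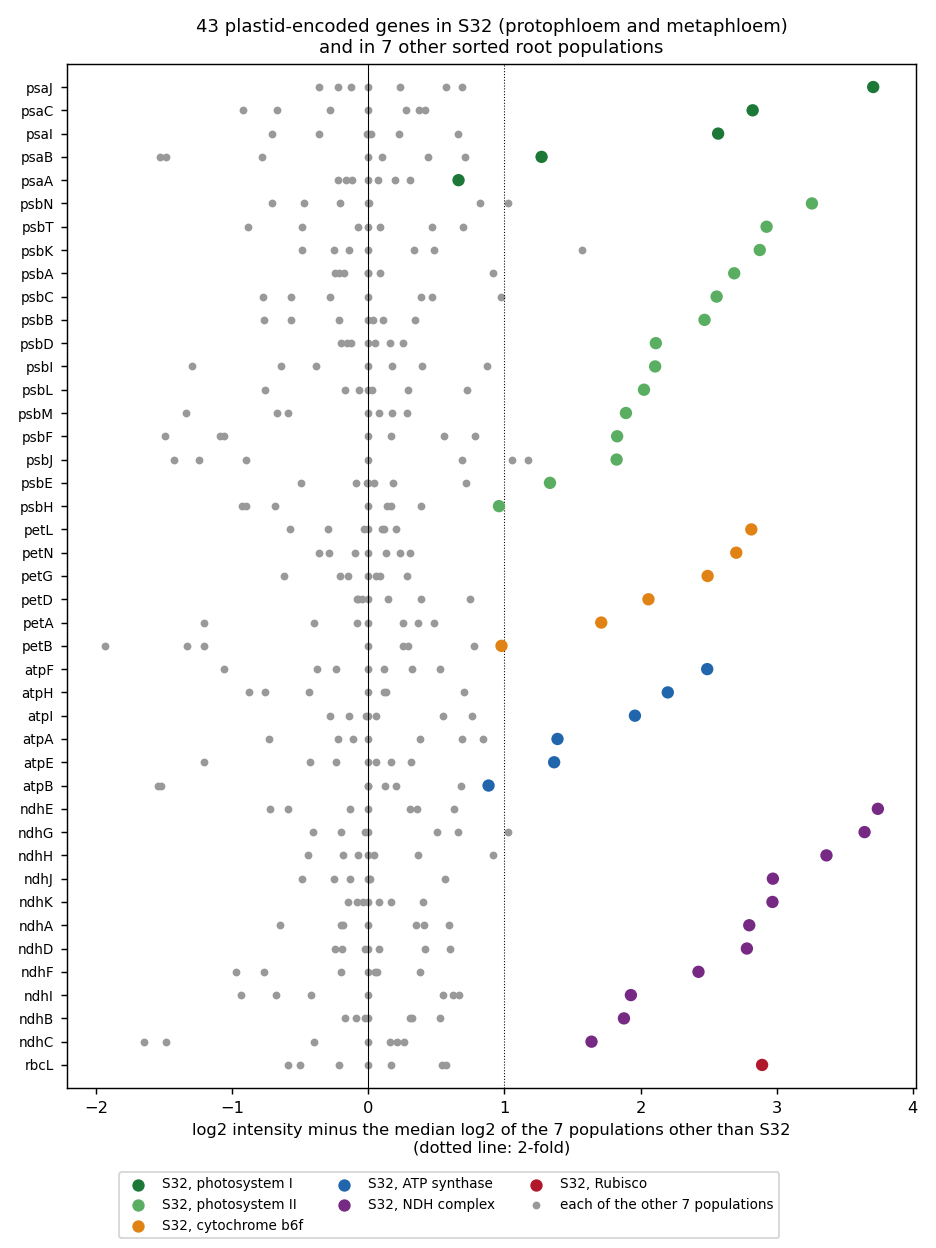
Log2 intensity of each of the 43 members minus the median of the 7 populations other than S32, by complex, with S32 coloured and each of those 7 populations in grey. The dotted line marks 2-fold. For the grey points this reference is not the one used for the differences in the text. With values as deposited the coloured point is the rightmost in every row, and 39 of 43 lie beyond 2-fold.

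Other genes set the S32 result in context. The 33 other plastid-encoded genes of a list of RNA polymerase, ribosomal and other genes were also highest in S32 for 33 of 33, with a median of 5.30-fold. This list is not free of photosynthesis genes, since it holds psbZ of photosystem II and the photosystem I assembly genes ycf3 and ycf4. Of 18 listed mitochondrial respiratory chain genes 10 were measured. Their median in S32 was 4.61-fold, and 8 were highest there. The other 2, nad2 and nad7, were highest in JO121 at 0.917 and 0.889, near its array median (0.837). Both lay below the array median in S32 (0.523 and 0.560), so their values may be background. For nad1 (7 probe sets), nad5 (2) and the plastid gene rps12 (2), the probe set with the highest mean over the sections was used. Of 14 measured nuclear photosynthesis genes 0 were highest in S32, and their median there was 0.994-fold. Their median intensity was 0.726 in S32 and 0.762 in the other 7 populations, below the S32 array median (0.892). Many of these values may be background, so this fold cannot show whether S32 differs for them. The 5 measured chlorophyll synthesis and greening genes had a median of 1.07-fold in S32, with 0 highest, at a similarly low median intensity there (0.752). As background, the amplification named in the labels starts from poly(A) tails, which organelle transcripts carry only rarely and unstably. The part that tail length or RNA quality had in the S32 values was not tested. The spread of log2 values of the S32 array (SD 1.26) lay within that of the other sorted arrays (0.879 to 1.53).

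Most of the measured nuclear photosynthesis genes were highest in another population. Single-gene probe sets measured 14 of 101 listed, which were light-harvesting proteins, subunits of the photosystems and the ATP synthase, PGRL1B of electron transport and the Calvin cycle enzymes or activators RCA, PRK and SBPASE. Of the 14, 12 were highest in S17, the phloem pole pericycle, where 9.95% of all probe sets had their highest value, and 7 were at least 2-fold above the median of the other 7 (7.83%). Their median log2 difference in S17 was 0.98, at a median intensity of 1.24 there and of 0.598 to 0.923 in the other 7 populations. Plastid-encoded members in S17 had a median of -0.20. As all 43 were highest in S32, a count of highest values in S17 needs S32 left out. Without S32, S17 was highest for 5 of 43 members (10.9% of all probe sets), and their median there was -0.08. PSBW, a nuclear subunit of photosystem II, stood at 3.78 in S17 and 1.08 in S32. LHCB4.1, a light-harvesting protein, stood at 3.29 in S17 and 0.982 in S32. ATPC1, the gamma subunit of the plastid ATP synthase, stood at 3.59 in S17 and 0.884 in S32. PRK was highest in J2501 and ATPC2 in COBL9, and SBPASE was level in S17 (0.800) and S32 (0.799). SBPASE and LHCB4.2 (0.855) count as highest in S17 but lay below its array median (0.870). PRK in J2501 (0.760) also lay below the median of that array (0.884), so these values may be background.

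**Figure D2:**
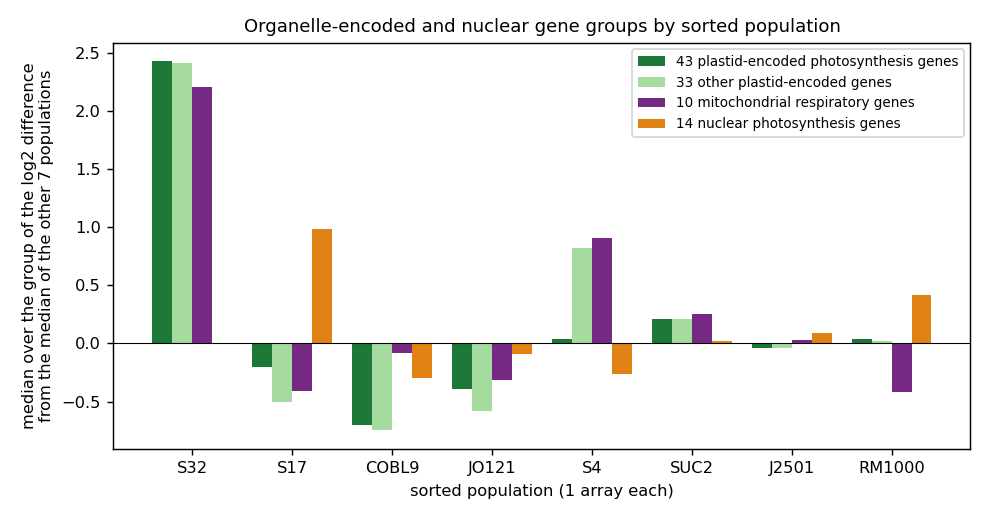
Median log2 difference from the other 7 populations in each sorted population, S32 first, for the 43 members, 33 other plastid-encoded genes, 10 mitochondrial genes and 14 nuclear photosynthesis genes. The first 3 groups are high in S32 (medians above 2), while the nuclear group is near 0 there and highest in S17 (0.98).

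Differences among the other 7 populations were smaller. In COBL9, the hair cells, 23 of 43 members had their lowest value of the 8 populations (15.9% of all probe sets) and 11 were at least 2-fold below the median of the others (5.98%), with a median log2 difference of -0.70. The median intensity of the members in COBL9 was 0.828, near the array median (0.822), so many of these lowest values may be background. The lowest value of any probe set was 0.244 in COBL9, against 0.447 in JO121 and 0.479 in J2501. The lowest there were psbJ at -2.12, ndhC, a membrane subunit of NDH, at -1.81 and atpB at -1.67. ndhC (ArthCp027) stood at 1.73 in COBL9, against 16.9 in S32, 5.42 in S17, 6.06 in SUC2, 4.12 in J2501, 1.93 in JO121, 6.48 in RM1000 and 6.26 in S4. Without S32 among the others, 8 members stayed at least 2-fold below in COBL9 (6.24% of all probe sets). In JO121, the xylem pole pericycle, 11 members were also at least 2-fold below (5.09%), with a median of -0.39, led by psbJ (-1.93), ndhC (-1.65) and psaB (-1.59). In J2501, 7 were at least 2-fold below (8.52%) and ndhG alone was at least 2-fold above, at 1.03 (0.835%). petB was lowest there, at -2.19, followed by atpB at -1.65 and psaB at -1.63.

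JO121 and J2501 had the lowest spread of the sorted arrays (SD 0.997 and 0.879), and their counts moved with scaling. With arrays scaled to a common SD there were 4 members at least 2-fold below in JO121 and 2 in J2501, and after quantile normalization 2 in JO121 and 1 in J2501. The member median of J2501, -0.04 as deposited, was 0.24 and 0.16 under these settings. The COBL9 count was 10 under both. In SUC2, the companion cells, the median was 0.21 and psbK and psbJ were at least 2-fold above, at 1.57 and 1.17 (5.33%). psbK (ArthCp005), a small photosystem II subunit, stood at 3.53 in SUC2, against 8.72 in S32, 1.19 in S17, 1.07 in J2501, 0.995 in JO121, 1.66 in RM1000, 1.49 in S4 and 0.845 in COBL9. In S17 psbJ (1.06) and in RM1000 psbN (1.02) were the single members at least 2-fold above (7.83% and 7.07%). In S4 0 members were at least 2-fold above (14.4%) and 0 at least 2-fold below (5.59%), with a median of 0.04, while the 33 other plastid-encoded genes had a median of 0.82 there, 11 of them at least 2-fold above.

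Along the root the median of the members was higher near the tip than in the maturation zone, while 0 of 43 single members passed a zone test and 1 passed the test over positions. From the tip to the base of root 2 the median intensity of the 43 members was 2.04, 1.85, 1.31, 1.47, 1.37, 1.72, 1.85, 1.90, 1.47, 1.10, 1.16 and 1.35. In root 1 it was 1.66, 1.82, 1.55, 1.70, 1.60, 1.45, 1.19, 1.13, 1.06, 1.14, 1.33 and 1.24. Root 2 thus had a high at the tip and another in the elongation zone, and root 1 declined from the meristematic into the maturation zone. In root 2 the lowest value lay at maturation section 2 for 19 members (6.91% of all probe sets), and the highest most often at elongation section 2, for 10 (3.56%). In root 1 the highest lay at meristematic section 2 for 20 members (14.7%) and the lowest at elongation section 2 for 20 (11.4%), the array with the reduced spread. Levels in sections mix all cell types, so cell numbers and RNA per cell cannot be told apart.

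**Figure D3:**
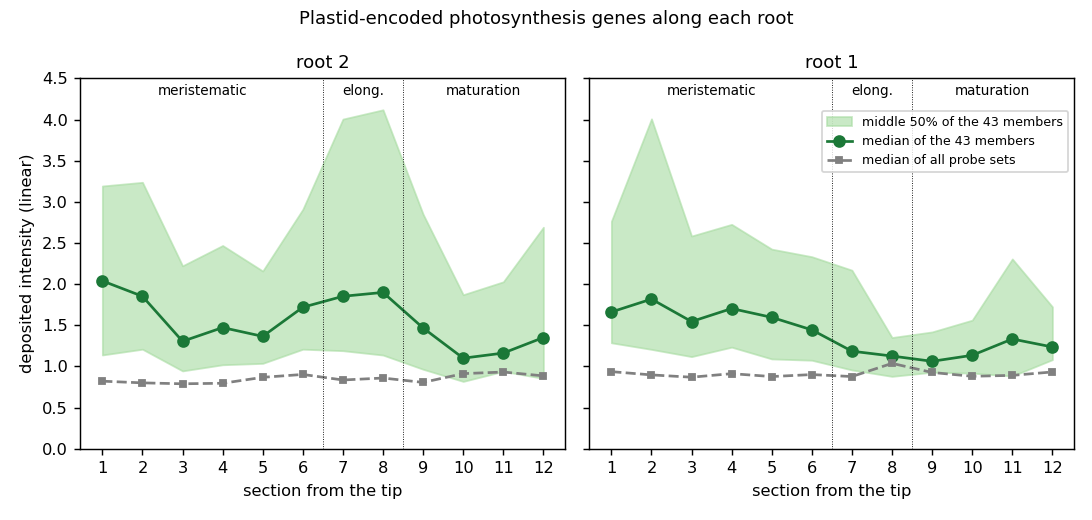
Median deposited intensity of the 43 members (green line, band for the middle 50% of members) and of all probe sets (grey) in sections 1 to 12 from the tip, root 2 on the left and root 1 on the right. Member medians run from 1.10 to 2.04 in root 2 and from 1.06 to 1.82 in root 1, always above the array median.

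Between the maturation and the meristematic zone, 0 of 43 members passed the threshold of an adjusted p of 0.05 with limma (13.7% of all probe sets did), and 10 had an unadjusted p under 0.05, all lower, or 23.3%, against 28.4% of all probe sets. Maturation values were lower in both roots for 36 of 43 members (37.3% of all probe sets), and higher in both for psbA and psbM (29.8%). The median log2 difference of the members was -0.38, or -0.30 in root 2 and -0.46 in root 1, against -0.04 over all probe sets. By complex the median was -0.28 for photosystem I, -0.25 for photosystem II, -0.31 for cytochrome b6f, -0.45 for the ATP synthase, -0.47 for NDH and -0.46 for rbcL. All 11 NDH and all 6 ATP synthase genes were lower in both roots, as were 5 of 6 cytochrome b6f, 10 of 14 photosystem II and 3 of 5 photosystem I genes. The mean spread of the arrays was 1.24 in maturation and 1.18 in meristematic sections of root 2, and 0.807 and 0.913 in those of root 1. With arrays scaled to a common SD the member median was -0.39.

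Among photosystem I genes, psaI had zone means of 4.52 in maturation sections against 7.83 in meristematic sections of root 2, and of 3.64 in maturation sections against 8.20 in meristematic sections of root 1. Both roots gave the lower value in maturation, at log2 -0.98 ± 0.41 (SE, n = 2 roots, limma, unadjusted p = 0.0592, adjusted p = 0.197). psaJ differed between roots, with a log2 difference of 0.03 in root 2 and -1.22 in root 1, as did psaB, with 0.37 and -0.62. In photosystem II, psbD (ArthCp017), the partner of psbA in the reaction centre, gave log2 -0.48 ± 0.14 (SE, n = 2 roots, limma, unadjusted p = 0.0173, adjusted p = 0.0883). Its zone means were 1.04 in maturation sections against 1.53 in meristematic sections of root 2 and 1.01 in maturation sections against 1.34 in meristematic sections of root 1. psbF (ArthCp038), a cytochrome subunit, gave log2 -0.67 ± 0.22 (SE, n = 2 roots, limma, unadjusted p = 0.0272, adjusted p = 0.118), at 1.30 in maturation sections against 2.13 in meristematic sections of root 2 and 1.35 in maturation sections against 2.09 in meristematic sections of root 1. These zone means are geometric, and all 3 genes were lower in maturation in both roots without passing the threshold. psbA stood at 4.22 in maturation sections against 2.42 in meristematic sections of root 2 and 1.62 in maturation sections against 1.54 in meristematic sections of root 1, a difference of log2 0.44 ± 0.37 (SE, n = 2 roots) with a limma adjusted p = 0.566.

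In the other complexes, petB again differed between roots, at log2 0.31 in root 2 and -0.38 in root 1, whereas petN, a small subunit of cytochrome b6f, was lower in both at -0.52 and -0.74. Of the ATP synthase, atpA (ArthCp007), the alpha subunit, gave log2 -0.48 ± 0.18 (SE, n = 2 roots, limma, unadjusted p = 0.0414, adjusted p = 0.155). Of NDH, ndhJ, ndhH, ndhB and ndhK had unadjusted p values under 0.05. ndhJ (ArthCp025), a peripheral arm subunit, gave log2 -0.65 ± 0.22 (SE, n = 2 roots, limma, unadjusted p = 0.0291, adjusted p = 0.123). rbcL stood at 1.60 in maturation sections against 2.07 in meristematic sections of root 2 and 1.46 in maturation sections against 2.16 in meristematic sections of root 1, log2 -0.46 ± 0.26 (SE, n = 2 roots) with a limma adjusted p = 0.343. When the fit used all 24 arrays, which counts sections of a root as separate samples, 19 members were lower at the threshold (13.4% of all probe sets), psbT first at log2 -0.82 and an adjusted p of 0.000924.

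**Figure D4:**
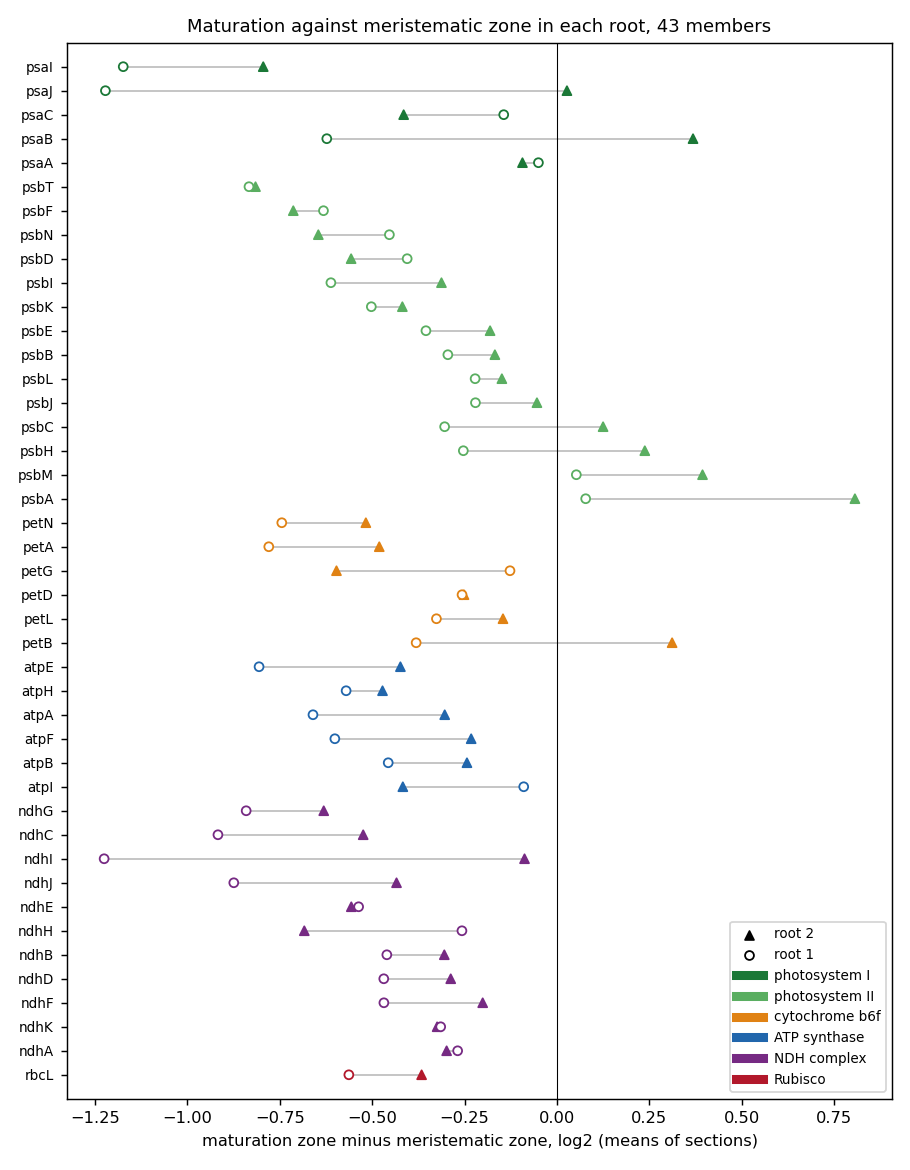
Log2 difference of maturation minus meristematic zone means for each of the 43 members, by complex, triangles for root 2 and open circles for root 1. Both symbols lie left of 0 for 36 members, and both lie right of 0 for psbA and psbM.

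The member medians of the elongation zone had opposite signs in the roots. Against the meristematic zone 0 of 43 members passed (7.52% of all probe sets) and psbD alone had an unadjusted p under 0.05, against 24.6% of all probe sets. The member median was -0.19, made up of 0.22 in root 2 and -0.59 in root 1, and 9 members were lower in both roots (30.3%) and 0 higher in both (43%). Without elongation section 2 of root 1, the array of low spread and conflicting description, the member median was -0.08, and without that section of both roots -0.06. psbD gave log2 -0.36 ± 0.14 (SE, n = 2 roots, limma, unadjusted p = 0.0473, adjusted p = 0.197). ndhB, an NDH membrane subunit, gave log2 -0.35 ± 0.14 (SE, n = 2 roots, limma, unadjusted p = 0.0536, adjusted p = 0.211), at 0.886 in elongation sections against 0.985 in meristematic sections of root 2 and 0.827 in elongation sections against 1.21 in meristematic sections of root 1. With all 24 arrays fitted as separate samples ndhB alone of the members passed (limma adjusted p = 0.0446), where 3.64% of all probe sets were called lower. ndhB lay above the array median in 14 of 24 sections and above the 75th percentile in 2, so its values may be background. Between maturation and elongation zones 0 of 43 passed (1.04%) and psbB had an unadjusted p under 0.05, against 12.5% of all probe sets. The median was -0.26, or -0.54 in root 2 and 0.07 in root 1, with 12 lower in both roots (40.8%), and it was -0.14 without elongation section 1 of root 1. psbB (ArthCp049), the other inner antenna protein of photosystem II, gave log2 -0.32 ± 0.12 (SE, n = 2 roots, limma, unadjusted p = 0.0444, adjusted p = 0.387). ndhK (ArthCp026), a peripheral arm subunit, gave log2 -0.29 ± 0.12 (SE, n = 2 roots, limma, unadjusted p = 0.0540, adjusted p = 0.414). The mean spread of elongation arrays was 1.10 in root 2 and 0.709 in root 1.

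A moderated F test over the 12 positions called 1 of 43 members, psbT (limma unadjusted p = 0.0077, adjusted p = 0.0431), while 19.2% of all probe sets passed. At an unadjusted p under 0.05 there were 7 members (psbT, psbN, psbF, psbB, psbK, psaI and psbD), against 31.3% of all probe sets. In tip-to-base order psbT stood at 1.65, 1.22, 0.805, 0.999, 1.37, 1.70, 1.26, 1.07, 0.629, 0.610, 0.841 and 0.783 in root 2. In root 1 it stood at 2.93, 1.56, 1.57, 2.49, 1.63, 1.84, 1.14, 0.717, 1.03, 0.888, 1.10 and 1.40. Its highest section was meristematic in both roots, and its maturation values lay below every meristematic value in root 1 but overlapped them in root 2. The call held in 7 of 24 runs that left out 1 array each (adjusted p from 0.0122 to 0.103), and it was lost after quantile normalization (adjusted p = 0.183), scaling to a common SD (0.168), an offset of 1 (0.0683) or no replicate block (0.275). Under quantile normalization and a common SD the test called psbB in its place (adjusted p = 0.0432 and 0.0234), so which member passed depended on the scaling. Without elongation section 2 of root 2 the test called 8 of 43 members (psaI, psbM, psbI, petA, ndhC, psbT, psbF and ndhG), and without that of root 1 it called 5 (psaI, psbT, ndhC, psbF and petA). The shares of all probe sets called in these 2 runs are not given here, so the higher counts cannot be read as particular to the members. The maturation against meristematic differences of psbT were log2 -0.82 in root 2 and -0.83 in root 1.

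psbN stood at 2.14, 2.15, 1.20, 1.40, 2.34, 2.08, 1.85, 1.94, 1.33, 1.10, 1.16 and 1.11 in root 2. Root 1 gave psbN values of 1.68, 1.90, 1.28, 1.40, 1.46, 1.46, 1.00, 1.32, 1.03, 1.03, 1.08 and 1.31. Its limma adjusted p was 0.0545, and its meristematic and maturation values overlapped in both roots. psbF stood at 3.30, 2.32, 1.66, 1.94, 1.71, 2.25, 2.37, 1.90, 1.67, 1.08, 1.12 and 1.41 in root 2. Root 1 gave 2.24, 2.52, 1.87, 2.36, 2.00, 1.69, 1.92, 0.861, 1.21, 1.31, 1.54 and 1.36 for psbF. Maturation values of psbF lay below every meristematic value in root 1 and overlapped them at maturation section 1 of root 2, and its limma adjusted p was 0.0851. psaI stood at 6.12, 7.66, 6.47, 8.43, 8.64, 10.5, 7.15, 7.89, 4.93, 3.57, 5.06 and 4.66 in root 2. In root 1 it stood at 5.56, 12.5, 6.30, 12.0, 6.97, 8.36, 5.14, 1.18, 3.65, 2.44, 4.85 and 4.05. In both roots every maturation section was below every meristematic section for psaI, and the lowest of root 1 was elongation section 2. psbB stood at 1.56, 1.34, 1.06, 1.16, 1.17, 1.32, 1.16, 1.80, 1.47, 0.920, 1.01 and 1.16 in root 2. For root 1 the psbB values were 1.38, 1.39, 1.21, 1.08, 1.05, 1.08, 0.991, 1.37, 0.948, 0.968, 0.989 and 0.973. psbK stood at 1.86, 1.86, 1.25, 1.47, 1.30, 1.72, 1.40, 1.87, 1.38, 1.01, 1.16 and 1.13 in root 2, and in root 1 at 1.94, 1.82, 1.55, 1.84, 1.60, 1.44, 1.10, 1.36, 1.09, 1.01, 1.07 and 1.70. Maturation values of psbB lay below every meristematic value in root 1 but not in root 2, and those of psbK overlapped the meristematic values in both roots.

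psbA had the opposite profile in root 2, at 2.58, 1.70, 1.97, 2.45, 2.91, 3.24, 4.60, 7.15, 4.29, 3.68, 5.06 and 3.99. In root 1 it stood at 1.53, 1.57, 1.52, 1.69, 1.39, 1.52, 1.25, 1.18, 1.54, 1.32, 2.26 and 1.50. In root 2 every section from elongation section 1 on was above every meristematic section, whereas in root 1 the 3 zones overlapped and maturation section 3 was highest. rbcL stood at 2.52, 2.16, 2.47, 2.27, 1.46, 1.75, 2.42, 4.26, 1.89, 1.38, 1.41 and 1.80 in root 2 and at 1.63, 2.80, 2.82, 2.09, 2.06, 1.81, 1.88, 1.48, 1.47, 1.59, 1.56 and 1.24 in root 1. It peaked at elongation section 2 in root 2 and at meristematic sections 2 and 3 in root 1. psaB stood at 7.08, 7.35, 5.16, 6.08, 5.66, 5.05, 8.35, 9.73, 8.85, 6.67, 6.13 and 9.94 in root 2 and at 2.60, 6.57, 4.10, 3.47, 3.44, 2.80, 3.65, 1.37, 1.76, 2.25, 3.64 and 2.16 in root 1. At every position psaB was higher in root 2.

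**Figure D5:**
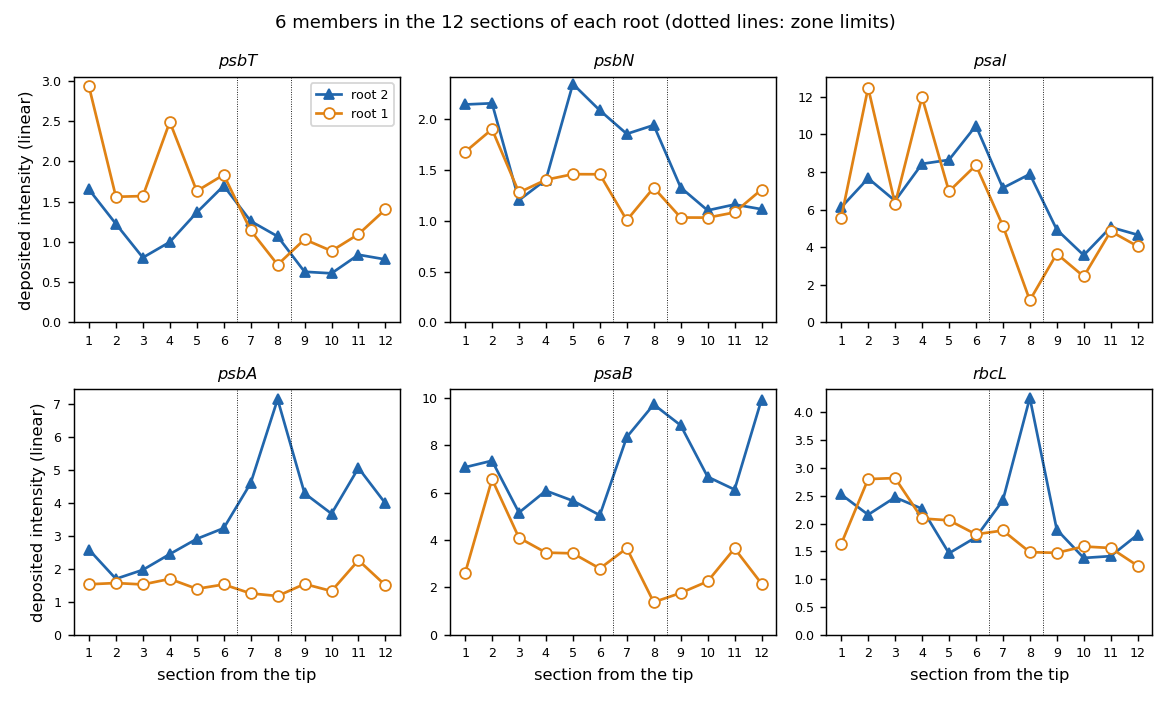
Deposited intensity of psbT, psbN, psaI, psbA, psaB and rbcL in sections 1 to 12 from the tip, triangles for root 2 and open circles for root 1. psbT, psbN and psaI are highest among meristematic sections in both roots, while psbA exceeds its meristematic values from section 7 on in root 2 only.

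The members with the largest and smallest F test p of each complex vary as follows. psaA had a low of 0.712, a median of 0.944 and a high of 1.03 in root 2, and 0.807, 1.04 and 1.16 in root 1. psbC had a low of 1.23, a median of 1.50 and a high of 1.92 in root 2, and 0.910, 1.19 and 1.35 in root 1. petN had a low of 0.807, a median of 1.33 and a high of 2.17 in root 2, and 1.11, 1.70 and 3.66 in root 1, and petB had a low of 1.72, a median of 2.83 and a high of 3.98 in root 2, and 1.02, 1.66 and 2.73 in root 1. By their medians psbC and petB were higher in root 2, and petN lower. atpA had a low of 1.68, a median of 2.27 and a high of 2.85 in root 2, and 1.14, 1.86 and 2.67 in root 1, and atpI (ArthCp010), a membrane subunit of the ATP synthase, had a low of 0.448, a median of 0.608 and a high of 0.841 in root 2, and 0.590, 0.738 and 1.05 in root 1. ndhG had a low of 1.39, a median of 2.33 and a high of 3.94 in root 2, and 1.08, 2.71 and 4.20 in root 1, and ndhI (ArthCp078), an iron-sulphur subunit, had a low of 1.31, a median of 3.22 and a high of 5.32 in root 2, and 1.20, 4.05 and 8.11 in root 1. For ndhG and ndhI the highest section was over 2 times the lowest in both roots.

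Steps between neighbouring sections were tested in the same fit, and 0 of 43 members passed limma's test at any of the 11 steps. Among all tests of 43 members at each of 11 steps, only 8 reached an unadjusted p under 0.05. The share of all probe sets at that limit is not given here, so these 8 are described without a claim of change. In tip-to-base order the steps called 0.303%, 0.0176%, 0%, 0%, 0%, 0.0264%, 0.136%, 0.0396%, 0.0396%, 0.044% and 0.044% of all probe sets. psbB was higher at elongation section 2 than at elongation section 1 by log2 0.55 ± 0.18 (SE, n = 2 roots, limma, unadjusted p = 0.00921, adjusted p = 0.262). psbN was lower at meristematic section 3 than at section 2, at log2 -0.71 ± 0.24 (SE, n = 2 roots, limma, unadjusted p = 0.00975, adjusted p = 0.542). At that step 29 members were lower in both roots (28.0% of all probe sets), with a member median of -0.40.

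The roots differed from each other for some members more than others. By position the member median of root 2 minus root 1 ran from -0.25 at meristematic section 4 to 0.81 at elongation section 2, while medians over all probe sets ran from -0.23 to 0.03. It was 0.44 at elongation section 1 and 0.36 at maturation section 1. Root 2 was higher at all 12 positions for psaB and psbA, or 4.65% of members against 3.79% of all probe sets, and lower at all 12 for 0 members, against 2.03%. Averaged over positions (geometric means), atpE stood at 16.7 in root 2 and 6.70 in root 1, a mean log2 difference of 1.32, or 1.14 without elongation section 2. psaB stood at 6.99 in root 2 and 2.91 in root 1 (1.27), and psbA at 3.36 and 1.50 (1.16). At the other end psbT, petN and ndhF stood lower in root 2, at mean log2 differences of -0.47, -0.46 and -0.45. With 1 array per root and position these differences have no test.

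Many of these genes are transcribed together in plastids. Pearson correlations of section profiles over 12 sections, as a description, had medians of 0.47 in root 2 and 0.52 in root 1 for the 51 pairs of one transcription unit. For the 852 other member pairs they were 0.41 in root 2 and 0.55 in root 1, and pairs of one unit had the higher median in root 2 only. The points share array and spread. atpB and atpE, 1 unit, correlated at 0.74 in root 2 and 0.81 in root 1. The unit from ndhH to ndhD, with psaC, had a median of 0.63 in root 2 and 0.60 in root 1. psaA and psaB, also 1 unit, gave -0.22 in root 2 and -0.36 in root 1, where psaA lay near the array medians. Over the 7 sorted populations without S32 the medians were 0.58 for pairs of one unit and 0.38 for other pairs.

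In the columella section, members stood between 0.902 and 1.66, with a median of 1.01. Of the 43, 14 lay below every section of root 1 (14.7% of all probe sets) and 0 above every one (22.0%). The reduced spread of that array (SD 0.137) moves with these values, and its part in them was not tested.

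Other genes of the plastid gave the background to the zones. Of the 33 other plastid-encoded genes 0 passed limma's test between maturation and meristematic zones, 11 had an unadjusted p under 0.05, and the median was -0.72 (-0.59 in root 2, -0.80 in root 1), with 31 lower in both roots. Over the positions 2 of the 33 passed the F test (19.2% of all probe sets), rpl22, a protein of the large ribosomal subunit (limma adjusted p = 0.0432), and rpoC2, a subunit of the plastid RNA polymerase (limma adjusted p = 0.0470). Of 10 mitochondrial genes 0 passed and 0 had an unadjusted p under 0.05, with a median of -0.05. Of 14 nuclear photosynthesis genes 1 rose in maturation, PSBW, by log2 0.85 ± 0.13 (SE, n = 2 roots, limma adjusted p = 0.0218), where 13.7% of all probe sets passed. Their median was 0.23, and 8 were higher in both roots (29.8% of all probe sets). Of 5 chlorophyll synthesis and greening genes HYH, a light signalling regulator, rose by log2 0.73 ± 0.14 (SE, n = 2 roots, limma adjusted p = 0.0310) between the same zones and by 0.82 between elongation and meristematic zones (adjusted p = 0.0359, where 7.52% of all probe sets passed).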

How the data were processed

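Per the labels, RNA came from a column kit for small samples and went through 2 cycles of Affymetrix amplification. Each probe set has 1 linear intensity per array as deposited. How the authors corrected, summarised and scaled it is not given in the sources used. Per the series' design text each line had 2 to 3 replicates, of which 1 array was analysed, and the precision is limited by the number of arrays. No detection calls were used, so a low value may be background. The platform annotation lists 1 gene for 13513 of 22746 probe sets, several for 503 and none for 8730, and the TAIR10.1 gene table was used for names only. The members and gene lists were chosen with earlier results of these data known.

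Intensities were converted to log2 with no offset or filter. Zone means per root (6 values) were fitted in limma 3.58.1 (R 4.3.3) with zone and root as terms, two-sided, on all probe sets, with Benjamini-Hochberg adjustment at 0.05, 2 residual and 3.06 prior degrees of freedom. Variation over the 12 positions and the steps between neighbours used all 24 section arrays with root as a block, with 11 residual and 3.62 prior degrees of freedom. Apart from the root term, that fit took the sections of a root as separate samples. P-values of the main fits measure how far the 2 roots disagree about differences between zones or positions. The mean difference between the roots is removed, and the variance is moderated over all probe sets. The block was kept because differences between the roots correlated between positions (median r 0.477 over 66 pairs of positions, range -0.233 to 0.834). With 1 array each, the sorted populations and the columella section were described without a test. Named members are the 6 smallest F test p, the 2 smallest p of each zone comparison where none passed, the extremes of each complex by F test p, and up to 3 largest differences of each population in each direction. Other members are named as examples chosen after their values were seen. The scripts were tested on simulated data. Summaries and figures used Python 3.11.15 with numpy 2.4.6, pandas 2.3.3 and matplotlib 3.10.9. Alternatives were no replicate block, all 24 arrays, quantile normalization, a common SD, an offset of 1, a level filter, a trended prior, the mean in place of the median of the other populations, a 4-fold limit, and leaving arrays out.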

Additional observations from a re-analysis of the deposited data

How the results depend on the processing

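The design has 2 roots and 1 array per sorted population, no detection calls and unstated scaling, and these limit every value. The member medians kept their sign in all 3 zone comparisons under every alternative tried on both roots together, although elongation differences had opposite signs in the 2 roots, and with 1 array left out they ran from -0.25 to -0.08 for elongation against meristematic and from -0.30 to -0.14 for maturation against elongation. With an offset of 1 the maturation against meristematic median was -0.23 in place of -0.38. It was -0.10 in place of -0.19 for elongation against meristematic (-0.12 with a common SD) and -0.14 in place of -0.26 for maturation against elongation. Between maturation and meristematic zones the count of members past the threshold, 0 as fitted, was 19 with all 24 arrays, 1 with a trended prior and 1 without elongation section 2 of both roots, and 0 to 2 with 1 array left out, the 2 arising without elongation section 2 of root 1. For elongation against meristematic it was 1 with all 24 arrays. Without the replicate block limma called 0 of 43 members in each zone comparison (2 at an unadjusted p under 0.05 in maturation against meristematic, 0 in the other comparisons). In the F test over positions, with 1 member as fitted, the count was 0 with no replicate block, 0 with an offset of 1, 5 without elongation section 2 of both roots, and 0 without meristematic section 1 of both roots, an alternative chosen after seeing the data. Leaving out 1 array gave 0 to 8, with 8 without elongation section 2 of root 2 and 5 without that of root 1, and without meristematic section 5 of root 1 the 1 member called was psbN. For the steps it gave 0 to 8, with 8 again without elongation section 2 of root 2. Shares of all probe sets in the runs that left arrays out are not given here. In the sorted populations 73 differences, above or below, passed 2-fold and 29 passed 4-fold. Of these, 39 and 27 were members above in S32 (6.04% and 2.51% of all probe sets). A share of all probe sets pooled over the populations is not given here. All 43 members were highest in S32 under quantile normalization and an offset of 1, and 41 with a common SD, while 36 to 42 were at least 2-fold above the others under all the settings tried for that fold, with medians of 3.40-fold to 6.00-fold. In COBL9 the 11 members at least 2-fold below became 19 against the mean of the others and 7 with an offset of 1, and in JO121 the 11 became 14 and 7. psbF passed between maturation and meristematic zones with all 24 arrays (log2 -0.67, adjusted p = 0.00202) and without elongation section 2 of root 1 (adjusted p = 0.0455), as did psbD with all 24 arrays. Member medians near 0 changed sign in 3 populations, J2501 from -0.04 to 0.24 with a common SD and 0.16 after quantile normalization, S4 from 0.04 to -0.06, -0.01 and, against the mean, -0.12, and RM1000 from 0.04 to -0.01 with a common SD and -0.11 against the mean. The causes were not tested.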
